A study of Homo sapiens with 12 samples.

Results

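Aminoacyl-tRNA synthetases are the enzymes that attach each amino acid to its transfer RNA. Their messenger RNAs were followed here through light polysomes, heavy polysomes and total RNA of human mammary epithelial cells, with the translation initiation factor eIF4G1 knocked down or not. The members were the genes of this enzyme family named by symbol, and their probe sets were taken only where the array annotation gave that symbol, or its older form without the final 1, and no other. Of 35 genes named, 32 had such a probe set, out of 19775 genes on the array. Of these, 17 of the 19 enzymes of the cytosol (symbols ending in 1, with FARSA and FARSB) and 15 of the 16 mitochondrial enzymes (symbols ending in 2) were covered. Where a gene had several such probe sets, the one with the highest mean log2 intensity over the 12 arrays stood for it. All 32 genes passed the filter on low values, a log2 intensity of at least 6 on at least 4 arrays, which 10157 genes passed in all.

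The 12 arrays held RNA of MCF10A, a non-tumorigenic mammary epithelial line that the sample annotation lists as of breast cancer origin. The cells either carried an eIF4G1 knockdown by a doxycycline-inducible short hairpin RNA (4GKD) or were wild type (WT), and each was irradiated with 10 Gy or mock-treated. From each of the 4 conditions came a heavy polysome pool (HMW), a light polysome pool (LMW) and total RNA (Total), 1 array each. For the WT mock pools the annotation gives ribosome numbers, 1 to 3 for the light pool and 4 or more for the heavy one. Nothing used here states whether WT cells had a control hairpin or doxycycline, or when after irradiation cells were harvested. Hairpin, drug and loss of eIF4G1 therefore cannot be told apart. With 1 array per condition and preparation there were no replicates, so no p-value measures the spread between repeated cultures. Each rests on how the 4 conditions scattered around the fitted difference and on the spread shared over all genes.

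Cytosolic synthetases charge the tRNAs that feed cytoplasmic ribosomes. Mitochondrial synthetases are encoded in the nucleus, translated in the cytoplasm and imported, and they charge the tRNAs of the mitochondrial ribosome. Several cytosolic synthetases, among them the fused glutamate and proline enzyme EPRS1, form the multisynthetase complex, and GARS1 and KARS1 make both the cytosolic and the mitochondrial enzyme from 1 gene each. eIF4G1 is the scaffold that joins the cap-binding protein eIF4E to the RNA helicase eIF4A and to the small ribosomal subunit. An mRNA that is initiated often, or that has a long coding region, carries more ribosomes and sediments further down a sucrose gradient.

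EIF4G1 itself was lower in 4GKD in every preparation. Its log2 intensity in Total was 7.46 (10 Gy) and 7.35 (mock) in 4GKD, against 9.75 (10 Gy) and 10.01 (mock) in WT. Keratins KRT5 and KRT14 of basal epithelium lay at a log2 intensity of 11.66 or above on every array, while the leukocyte marker PTPRC stayed at or below 3.40, the liver marker ALB at or below 3.31 and the endothelial marker PECAM1 at or below 5.55. The fibroblast markers passed the filter, PDGFRB at 5.37 to 6.67 and COL1A1 at 5.52 to 8.78. So did the luminal receptor ESR1, at 5.59 to 6.41. The other luminal receptor looked up, PGR, did not pass the filter and stayed at or below 3.36. Among the other epithelial markers measured, CDH1 ranged from 4.58 (LMW of WT mock) to 11.48. CDH3 lay between 8.94 and 11.95 and EGFR between 8.17 and 11.24. In Total of 4GKD, 2 of these 5 epithelial markers were higher and 2 lower, against 20.7% and 19.8% of all genes kept. There 4GKD minus WT was 1.20 and 1.20 for CDH1, -0.65 and -0.81 for KRT5, and -1.24 and -1.33 for KRT14 (10 Gy, mock). The WT polysome arrays stood apart. In LMW, 1.33% of the genes kept differed over 2-fold between 10 Gy and mock in 4GKD, against 20.1% in WT. The same shares in HMW were 0.847% in 4GKD and 18% in WT, whereas in Total they were 0.965% in 4GKD and 0.0886% in WT. The group medians of 4GKD minus WT in the polysome pools, and the cytosolic members' values in the heavy-to-light difference, are therefore also given separately for the 10 Gy and the mock arrays. Arrays were normalised to each other, so a value gives an mRNA relative to all others in its pool. In such bulk RNA, fewer cells of a type and less RNA per cell cannot be told apart.

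Promoter sequences were looked up because members of the cytosolic group moved together in the comparisons below, and because the histidine enzymes HARS1 (cytosolic) and HARS2 (mitochondrial) start back to back from 1 short stretch of DNA. RefSeq windows of GRCh38.p14 were found for 30 of the 35 genes named, and the 250 bases before the start were searched on both strands. The HARS1 start lies at position 140691370 of chromosome 5 on the minus strand and the HARS2 start at 140691455 on the plus strand, 85 bases apart. The bases between them, chr5:140691371-140691454 on the plus strand, are shown with CCGGAA, the core of ETS-type sites, in capitals on either strand; this motif was chosen after the stretch had been read.
HARS1-HARS2: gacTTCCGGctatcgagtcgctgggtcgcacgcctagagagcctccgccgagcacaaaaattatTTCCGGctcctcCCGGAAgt

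CCGGAA was present for 12 of 16 cytosolic genes with a window (75%) and for 8 of 14 mitochondrial genes (57.1%). Among genes kept by the filter that had a window, it was present for 2655 of 8409 (31.6%). A gene was counted if any of its windows held the motif. HARS1 and HARS2, from whose stretch CCGGAA was chosen, are among the genes counted. So are MARS1, QARS1 and TARS2, which are not among the genes kept by the filter. A second motif, TGATGNAA, is of the kind bound by ATF4 with a C/EBP partner, and ATF4 is a known activator of synthetase genes when amino acids run short. TGATGNAA was present for 3 of 16 cytosolic genes (18.8%), for 1 of 14 mitochondrial genes (7.14%) and for 187 of 8409 genes kept (2.22%). The 4 stretches that hold it are shown 5′ to 3′ on the gene's own strand, with the motif or its reverse complement in capitals. They are chr16:70289660-70289719 (minus) for AARS1, chr7:30594818-30594877 (plus) for GARS1, chr9:92293698-92293757 (minus) for IARS1 and chr12:32756061-32756120 (minus) for YARS2. A match is a description of these letters and not a binding site.
AARS1: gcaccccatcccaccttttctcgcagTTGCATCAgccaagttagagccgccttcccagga
GARS1: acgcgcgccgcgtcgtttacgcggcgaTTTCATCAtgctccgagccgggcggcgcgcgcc
IARS1: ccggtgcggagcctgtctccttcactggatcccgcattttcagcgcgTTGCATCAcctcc
YARS2: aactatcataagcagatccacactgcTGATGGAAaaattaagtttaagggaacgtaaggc

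The first question was where synthetase mRNAs sit in the gradient with the 4 conditions used as matched pairs. Cytosolic synthetase mRNAs leaned to the heavy pool: 8 of 17 rose in HMW against LMW, none fell, and the median log2 difference was 0.72. Over all genes kept, 19.6% rose, 21.1% fell and the median was -0.06. Of the 15 mitochondrial members, 1 rose, 4 fell and the median was 0.00. The cytosolic mRNAs that rose, with log2 difference ± SE, were EPRS1 (2.52 ± 0.47), LARS1 for leucine (2.13 ± 0.31), AARS1 for alanine (1.71 ± 0.34), TARS1 for threonine (1.22 ± 0.25), IARS1 for isoleucine (1.10 ± 0.26), GARS1 for glycine (1.01 ± 0.28), NARS1 for asparagine (0.89 ± 0.17) and FARSB, the beta subunit of the phenylalanine enzyme (0.60 ± 0.14). FARSA, the catalytic alpha subunit of the same enzyme, differed by -0.36 ± 0.23 (adjusted p = 0.23), and the other 8 cytosolic members lay between -0.09 and 0.86 without passing the threshold. Adjusted p-values here and below are from limma over all genes kept, with calls under 0.05.

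IARS2, the mitochondrial isoleucine enzyme, was the 1 mitochondrial member that rose in HMW against LMW (1.23 ± 0.14, adjusted p = 0.0025). The valine enzyme VARS2 fell by 0.75 ± 0.15, the phenylalanine enzyme FARS2 by 0.67 ± 0.13, the cysteine enzyme CARS2 by 0.53 ± 0.13 and the serine enzyme SARS2 by 0.49 ± 0.16. The calls of CARS2 and SARS2 were lost when the WT mock pair was left out (adjusted p = 0.0663 and 0.117). So were those of FARSB, GARS1, IARS1 and TARS1 (adjusted p between 0.0518 and 0.115). CARS2 and SARS2 also did not pass without 4GKD 10 Gy (adjusted p = 0.0801 and 0.132) or 4GKD mock (0.0888 and 0.187). SARS2 did not pass without a filter either (adjusted p = 0.0732), nor GARS1 without WT 10 Gy (0.0505).

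**Figure D1:**
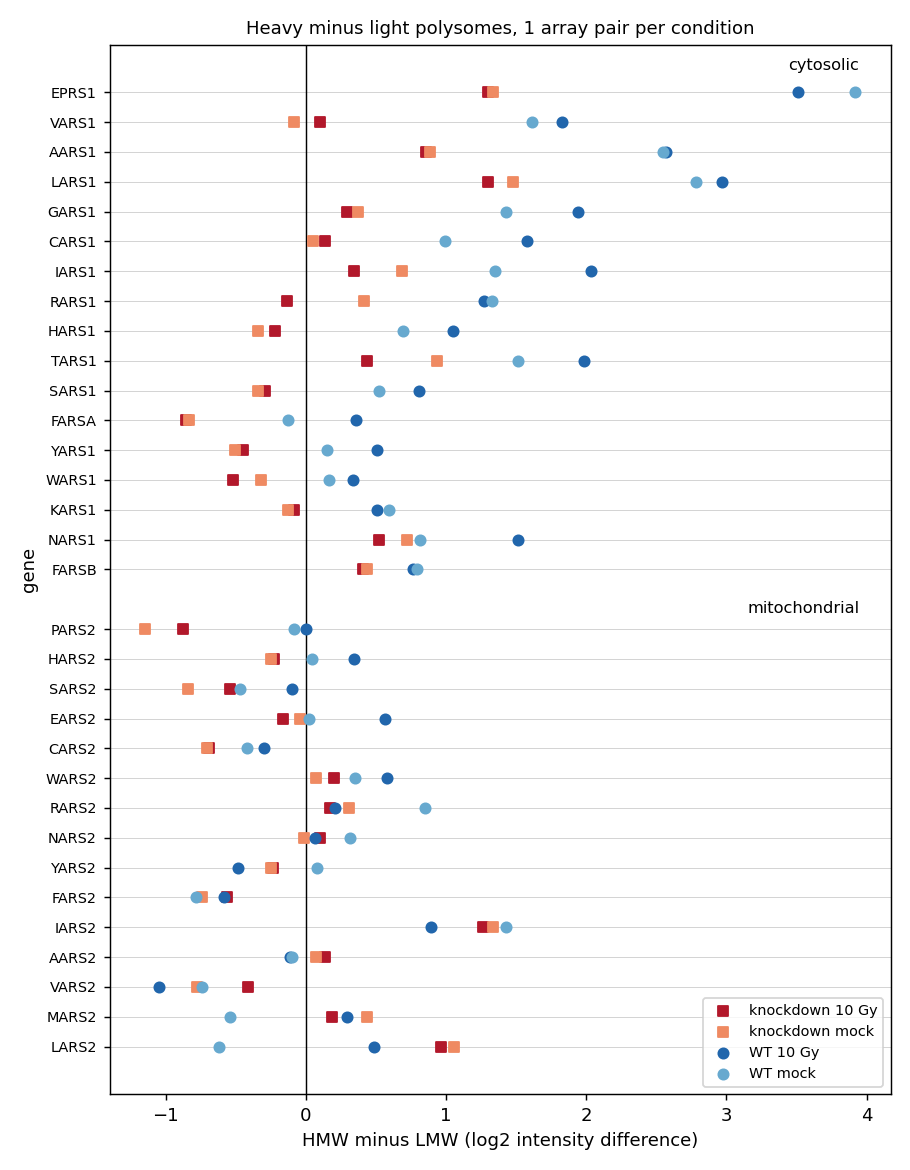
HMW minus LMW log2 intensity of 32 synthetase mRNAs (horizontal axis), with 1 gene per row and 1 array pair per point; red squares are 4GKD and blue circles are WT, dark for 10 Gy and light for mock. In all 17 cytosolic rows both red squares lie left of both blue circles, while in the mitochondrial rows this holds for 6 of 15.

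The heavy-to-light difference of the cytosolic group was not the same in the 4 conditions. The median over 17 cytosolic members was 0.13 in 4GKD 10 Gy and 0.37 in 4GKD mock, against 1.51 in WT 10 Gy and 0.99 in WT mock. Above 0 were 10 of 17 members in each 4GKD condition, 17 of 17 in WT 10 Gy and 16 of 17 in WT mock. For the 15 mitochondrial members the median was -0.17 in 4GKD 10 Gy and -0.05 in 4GKD mock, against 0.07 in WT 10 Gy and -0.08 in WT mock. The cytosolic median thus stood above the mitochondrial one in all 4 conditions. The gap was 0.30 (10 Gy) and 0.42 (mock) in 4GKD, against 1.45 and 1.08 in WT.

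The heavy-to-light difference fell in 4GKD against WT for 14 of 17 cytosolic synthetase mRNAs and rose for none. The median over the 17 was -1.15, and all 17 fitted values were below 0. Over all genes kept, 9.57% fell, 5.01% rose and the median was -0.01. Among the 2789 genes whose mean log2 intensity reached that of the dimmest cytosolic member, 15.3% fell. Of the 15 mitochondrial members, 1 fell, 1 rose and the median was -0.15. Both 4GKD conditions lay below both WT conditions for 17 of 17 cytosolic members, for 6 of 15 mitochondrial members (40%) and for 3244 of all genes kept (31.9%). At 10 Gy the cytosolic median of 4GKD minus WT was -1.41 and the mitochondrial median -0.04. In the mock arrays the cytosolic median was -0.86 and the mitochondrial median -0.28. All 17 cytosolic members were below 0 in each of these 2 array sets. Of the 27 cytosolic probe sets that passed the filter, including further probe sets of a gene, 27 were below 0.

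The epithelial markers moved in the same comparison, with 4 of the 5 tested lower in 4GKD, namely CDH1 (-1.93), KRT14 (-1.38), KRT5 (-1.20) and CDH3 (-1.15). The fibroblast marker COL1A1 was lower as well (-1.35, adjusted p = 0.0034, with -1.38 at 10 Gy and -1.33 in mock), and PDGFRB stood at 0.20 (adjusted p = 0.756). The part of these markers in the synthetase values was not tested. EIF4G1 mRNA fell by 1.70 in its own heavy-to-light difference.

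EPRS1, which joins glutamate and proline to their tRNAs, had the lowest fitted value of all 10157 genes in this comparison, -2.40 ± 0.20 (adjusted p = 1.7e-06). Its HMW minus LMW difference was 1.30 and 1.33 in 4GKD (10 Gy, mock), against 3.51 and 3.92 in WT (10 Gy, mock), which is 2.46-fold and 2.52-fold in 4GKD against 11.4-fold and 15.1-fold in WT. The size depends on the probe set: the other 2 EPRS1 probe sets gave -0.89 and -1.48. The genotypes were farthest apart in the light pool. EPRS1 log2 intensity in LMW was 11.64 and 11.85 in 4GKD (10 Gy, mock), against 9.13 and 7.88 in WT. In HMW it was 12.94 and 13.19 in 4GKD, against 12.64 and 11.80 in WT, and in Total 11.39 and 11.39 in 4GKD, against 11.45 and 11.64 in WT.

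LARS1, the leucine enzyme and another subunit of the multisynthetase complex, fell by 1.49 ± 0.24 (adjusted p = 0.00068). Its heavy-to-light difference was 1.30 and 1.48 in 4GKD (10 Gy, mock), against 2.97 and 2.79 in WT. In LMW its log2 intensity was 10.61 and 10.46 in 4GKD, against 8.33 and 7.87 in WT, and the groups did not overlap. VARS1, the valine enzyme, fell by 1.71 ± 0.27 (adjusted p = 0.00048). Its heavy-to-light difference was 0.10 and -0.08 in 4GKD, against 1.82 and 1.62 in WT, so that VARS1 signal was about equal in both polysome pools of 4GKD cells. A second, dimmer VARS1 probe set gave -0.35. AARS1, the alanine enzyme, fell by 1.69 ± 0.27 (adjusted p = 0.00058), with 0.86 and 0.88 in 4GKD against 2.57 and 2.55 in WT. For LARS1, VARS1 and AARS1 the 10 Gy and mock values of a genotype lay close together, and the genotypes did not overlap.

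The other cytosolic members that fell were GARS1 (-1.35 ± 0.20), the cysteine enzyme CARS1 (-1.19 ± 0.22), IARS1 (-1.18 ± 0.22), the arginine enzyme RARS1 (-1.16 ± 0.22), HARS1 (-1.15 ± 0.20), TARS1 (-1.06 ± 0.26), the serine enzyme SARS1 (-0.98 ± 0.22), FARSA (-0.96 ± 0.28), the tyrosine enzyme YARS1 (-0.81 ± 0.24) and the lysine enzyme KARS1 (-0.66 ± 0.13). The size depended on the array set for several of them: IARS1 was at -1.69 at 10 Gy and -0.67 in mock, TARS1 at -1.55 and -0.57, GARS1 at -1.64 and -1.06, CARS1 at -1.45 and -0.94, RARS1 at -1.41 and -0.91 and FARSA at -1.21 and -0.70. HARS1 (-1.27 at 10 Gy, -1.03 in mock), SARS1 (-1.10, -0.86), YARS1 (-0.96, -0.66) and KARS1 (-0.60, -0.72) were closer between the sets. Not past the threshold were the tryptophan enzyme WARS1 at -0.67 ± 0.27 (adjusted p = 0.0997), NARS1 at -0.54 ± 0.22 (adjusted p = 0.109) and FARSB at -0.36 ± 0.26 (adjusted p = 0.389). NARS1 was at -0.99 at 10 Gy and -0.10 in mock, WARS1 at -0.86 and -0.49, and FARSB at -0.36 in both. With the median of a gene's probe sets in place of the brightest, CARS1 (-0.98), YARS1 (-0.47), TARS1 (-0.44) and SARS1 (-0.17) no longer passed (adjusted p between 0.0832 and 0.740). The second probe sets of SARS1, YARS1 and TARS1 were dim, with mean log2 intensities of 5.14, 5.36 and 3.68. The dimmest CARS1 probe set was at 4.30.

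By role, the 5 members of the multisynthetase complex that were measured (EPRS1, IARS1, KARS1, LARS1 and RARS1) all fell, with a median of -1.18, and of the 12 cytosolic members outside it 9 fell, with a median of -1.02. By the fold of the catalytic domain, 6 of 7 class I and 7 of 9 class II enzymes fell, not counting EPRS1, which holds a domain of each class. Over all genes kept 9.57% fell, and 15.3% of the 2789 genes at least as bright as the dimmest cytosolic member. The 2 subunits of the phenylalanine enzyme, FARSA and FARSB, differed in size, and the difference between them was not tested.

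Among the mitochondrial members, the proline enzyme PARS2 fell by 0.97 ± 0.30 (adjusted p = 0.036) and the leucine enzyme LARS2 rose by 1.08 ± 0.32 (adjusted p = 0.031). The heavy-to-light difference of PARS2 was -0.88 and -1.15 in 4GKD (10 Gy, mock), against 0.00 and -0.08 in WT. That of LARS2 was 0.96 and 1.06 in 4GKD, against 0.48 and -0.62 in WT, with the WT values far apart. Both lie near the filter, with a mean log2 intensity of 6.46 for PARS2 and 6.66 for LARS2, and 8 and 9 of their 12 arrays at or above 6. Neither passed with a filter at 7 (adjusted p = 0.097 for PARS2 and 0.0616 for LARS2). IARS2 stood at 0.14 ± 0.25 (adjusted p = 0.78), with 1.27 and 1.33 in 4GKD against 0.89 and 1.42 in WT.

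For 11 amino acids both the cytosolic and the mitochondrial enzyme were measured. In each of the 11 pairs the cytosolic enzyme had the lower value of 4GKD minus WT in the heavy-to-light difference, by a median of 0.85. At 10 Gy alone this held in 11 of 11 pairs and in mock alone in 10 of 11, where asparagine was the exception (NARS1 -0.10, NARS2 -0.33). No test was made of this, since the members share their arrays. The leucine pair was farthest apart, with LARS1 at -1.49 and LARS2 at 1.08, followed by valine (VARS1 -1.71, VARS2 0.30), alanine (AARS1 -1.69, AARS2 0.21) and isoleucine (IARS1 -1.18, IARS2 0.14). The tryptophan pair was closest, with WARS1 at -0.67 and WARS2 at -0.33. HARS1 and HARS2, which share the stretch printed above, stood at -1.15 and -0.43. HARS1 had a heavy-to-light difference of -0.22 and -0.34 in 4GKD (10 Gy, mock), against 1.05 and 0.69 in WT, and HARS2 of -0.23 and -0.25 in 4GKD, against 0.35 and 0.04 in WT.

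**Figure D2:**
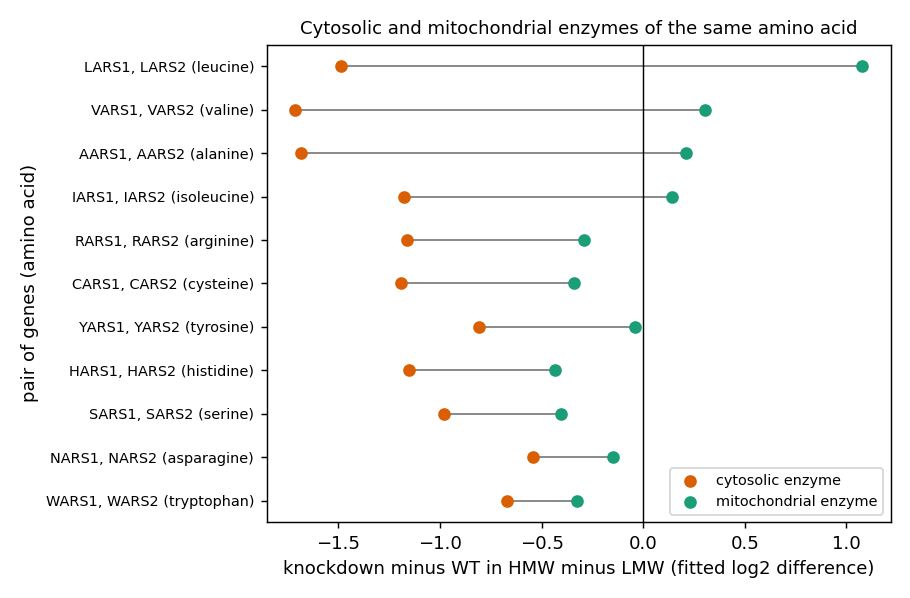
4GKD minus WT in the HMW minus LMW difference (fitted log2 difference, horizontal axis) for 11 pairs of enzymes that charge the same amino acid, with the cytosolic enzyme in orange and the mitochondrial one in green, joined by a line. The orange point lies left of the green one in 11 of 11 pairs, while in the mock arrays alone this holds for 10 of 11.

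The knockdown was then read in each preparation on its own, with the same arrays. In LMW, 12 of 17 cytosolic members were higher in 4GKD, none was lower, all 17 fitted values were above 0 and the median was 1.22. Over all genes kept, 10.3% were higher, 5.1% were lower and the median was 0.00. The highest were EPRS1 (3.24 ± 0.43), LARS1 (2.44 ± 0.47), VARS1 (1.72 ± 0.46), RARS1 (1.58 ± 0.39) and TARS1 (1.58 ± 0.45). AARS1 (1.22, adjusted p = 0.0593), FARSB (1.17, adjusted p = 0.0622), WARS1 (0.74), FARSA (0.40) and YARS1 (0.22) did not pass. The cytosolic median was 1.29 at 10 Gy, with 17 of 17 above 0, and 1.09 in mock, with 16 of 17 above 0. RARS1 log2 intensity in LMW was 11.59 and 11.32 in 4GKD (10 Gy, mock), against 10.18 and 9.56 in WT, and that of TARS1 was 10.72 and 10.64 in 4GKD, against 9.29 and 8.90 in WT. KARS1 was at 13.68 and 13.71 in 4GKD, against 13.00 and 12.75 in WT. In none of these 3 genes did the groups overlap. Both 4GKD arrays lay above both WT arrays in LMW for 16 of 17 cytosolic members, for 9 of 15 mitochondrial members and for 30.4% of all genes kept. With the median of a gene's probe sets, VARS1 (1.07), CARS1 (0.78), TARS1 (0.68) and SARS1 (0.09) no longer passed. Of the mitochondrial members IARS2 alone passed, higher in 4GKD (2.00 ± 0.47), and their median was 0.29. The mitochondrial median was 0.52 at 10 Gy, with 13 of 15 above 0, and 0.14 in mock, with 9 of 15 above 0. The epithelial markers were also higher in LMW of 4GKD in 4 of 5 cases, with CDH1 at 4.75, and COL1A1 was higher by 2.03 (2.65 at 10 Gy, 1.42 in mock). The part of these markers in the synthetase values was not tested.

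In HMW, 2 of 17 cytosolic members were higher in 4GKD, LARS1 (0.95 ± 0.28, adjusted p = 0.0129) and EPRS1 (0.85 ± 0.21, adjusted p = 0.0012), none was lower, and the median was 0.16. Over all genes kept 5.82% were higher and 4.09% lower. Without the trend in the fit neither passed (adjusted p = 0.115 for LARS1 and 0.184 for EPRS1). Between the array sets the values spread: EPRS1 differed by 0.30 at 10 Gy and by 1.39 in mock, LARS1 by 0.62 and 1.29, and TARS1 by -0.13 and 1.17. The cytosolic median was 0.0064 at 10 Gy, with 9 of 17 above 0, and 0.24 in mock, with 12 of 17 above 0. The mitochondrial median was 0.08 at 10 Gy and -0.0006 in mock. IARS2 was again the 1 mitochondrial member called (2.14 ± 0.37, adjusted p = 8e-07).

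In Total the changes were small. There, 8 of 17 cytosolic members were higher in 4GKD, 1 was lower and the median was 0.22, while over all genes kept 20.7% were higher, 19.8% were lower and the median was 0.03. LARS1 was higher by 0.64 ± 0.12, SARS1 by 0.54 ± 0.09, FARSA by 0.47 ± 0.11, FARSB by 0.42 ± 0.10, KARS1, HARS1 and VARS1 by 0.31 each and RARS1 by 0.24, and YARS1 was lower (-0.37 ± 0.10). With the median of a gene's probe sets SARS1 (0.02), VARS1 (0.10) and YARS1 (-0.29) no longer passed. RARS1, which has 1 probe set and kept its value of 0.24, did not pass in that limma fit either (adjusted p = 0.0549). LARS1 log2 intensity was 10.98 and 10.79 in 4GKD (10 Gy, mock), against 10.08 and 10.41 in WT, and YARS1 was at 9.51 and 9.80 in 4GKD, against 9.99 and 10.05 in WT. EPRS1, the member with the largest change in LMW, differed by -0.15 ± 0.08 in Total (adjusted p = 0.16). The mitochondrial members that were higher were MARS2 for methionine (0.46), CARS2 (0.43) and RARS2 for arginine (0.30), none was lower and the median over 15 was 0.05. AARS1, GARS1 and IARS1, the cytosolic genes whose promoter windows held TGATGNAA, differed by -0.03, -0.14 and -0.09, and none of them passed.

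**Figure D3:**
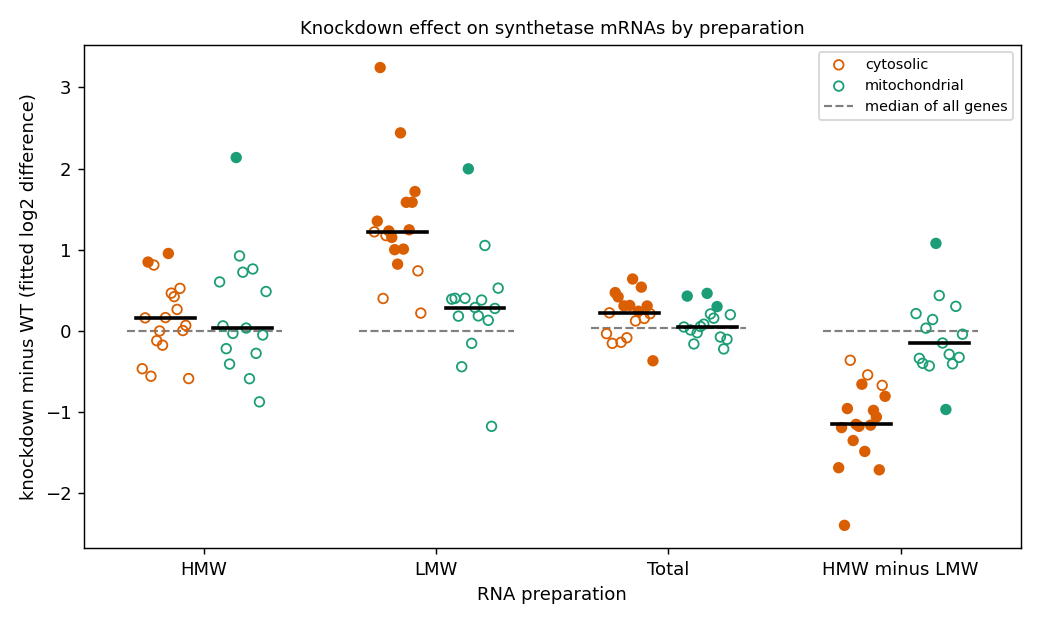
4GKD minus WT (fitted log2 difference, vertical axis) in HMW, LMW, Total and the HMW minus LMW difference, 1 point per synthetase mRNA, with filled points past an adjusted p of 0.05, bars at group medians and dashed lines at the median of all genes kept. The cytosolic points lie above 0 in LMW, with a median of 1.22, and below 0 in HMW minus LMW, with a median of -1.15.

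Against total RNA, most cytosolic synthetase mRNAs were higher in the heavy pool. In HMW against Total, 13 of 17 cytosolic members rose, none fell, all 17 fitted values were above 0 and the median was 0.75. Over all genes kept 17.4% rose, 18.6% fell and the median was 0.03. AARS1 (1.81 ± 0.18) and VARS1 (1.78 ± 0.19) were highest, followed by FARSA (1.33 ± 0.25), EPRS1 (1.18 ± 0.24), YARS1 (0.98 ± 0.15) and IARS1 (0.97 ± 0.12). With the median of a gene's probe sets EPRS1 (0.81, adjusted p = 0.0671), YARS1 (-0.0042, adjusted p = 0.989) and SARS1 (-0.41, adjusted p = 0.0805) did not pass. AARS1 log2 intensity was 10.44 and 10.54 in HMW of 4GKD (10 Gy, mock) and 10.61 and 11.31 in HMW of WT, against 8.79 and 9.003 in Total of 4GKD and 8.86 and 9.01 in Total of WT. NARS1, RARS1, FARSB and TARS1 lay between 0.23 and 0.46 without passing, and in the WT mock pair these 4 lay below 0. The 15 mitochondrial members split, with a median of 0.23. PARS2 (0.76), EARS2 for glutamate (0.69), SARS2 (0.68) and WARS2 for tryptophan (0.56) rose. IARS2 fell by 1.68, LARS2 by 0.91 and AARS2 for alanine by 0.84. EARS2, SARS2 and WARS2 did not pass without 4GKD 10 Gy, 4GKD mock or WT 10 Gy (adjusted p between 0.0552 and 0.202). WARS2 was also lost without a filter (0.0512) and with the median of its probe sets (0.0848). PARS2 did not pass without 4GKD 10 Gy or WT 10 Gy (0.0657 and 0.111). Without WT 10 Gy, IARS2, LARS2 and AARS2 did not pass either (between 0.0903 and 0.0969). The cytosolic median by condition was 0.69 in 4GKD 10 Gy, 0.64 in 4GKD mock, 0.91 in WT 10 Gy and 0.52 in WT mock. It was above 0 in each of the 4 conditions. The count of calls rested on the arrays used: without the WT 10 Gy pair 7 members of the family passed, against 20 with all pairs.

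In LMW against Total, 5 of 17 cytosolic members rose (FARSA 1.69, YARS1 1.05, VARS1 0.91, WARS1 0.76 and SARS1 0.58), LARS1 fell by 1.25, NARS1 fell by 0.66, and the median was -0.09. Over all genes kept 28.5% rose and 28.1% fell. For SARS1 and YARS1 the probe sets disagree: with the median of all their probe sets SARS1 stood at -0.41 (adjusted p = 0.105) and YARS1 at 0.14 (adjusted p = 0.606). Leaving out conditions ended further calls: VARS1 did not pass without 4GKD 10 Gy, 4GKD mock or WT mock (adjusted p between 0.110 and 0.166), SARS1 without the same conditions (between 0.0698 and 0.243), WARS1 without 4GKD 10 Gy or 4GKD mock (0.146 and 0.115), and LARS1 and NARS1 without WT 10 Gy or WT mock (between 0.101 and 0.139). EPRS1 stood at -1.34 ± 0.64 (adjusted p = 0.1). Its LMW signal was 1.19-fold and 1.38-fold that of Total in 4GKD (10 Gy, mock), against 0.201-fold and 0.0737-fold in WT. The cytosolic median likewise was 0.56 in 4GKD 10 Gy and 0.46 in 4GKD mock, against -0.71 in WT 10 Gy and -0.56 in WT mock. Of the mitochondrial members, PARS2 (1.29), SARS2 (1.17), FARS2 (1.10), VARS2 (0.91), CARS2 (0.85) and EARS2 (0.60) rose, and the median was 0.28. IARS2 fell by 2.91, LARS2 by 1.38, RARS2 by 0.91 and AARS2 by 0.84. EARS2 did not pass without 4GKD 10 Gy or 4GKD mock (adjusted p = 0.223 and 0.174). VARS2 did not pass without WT 10 Gy or WT mock (0.0705 and 0.0651). CARS2 was lost without 4GKD 10 Gy (0.0534), AARS2 without 4GKD mock (0.0648) and RARS2 without WT 10 Gy (0.0522).

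**Figure D4:**
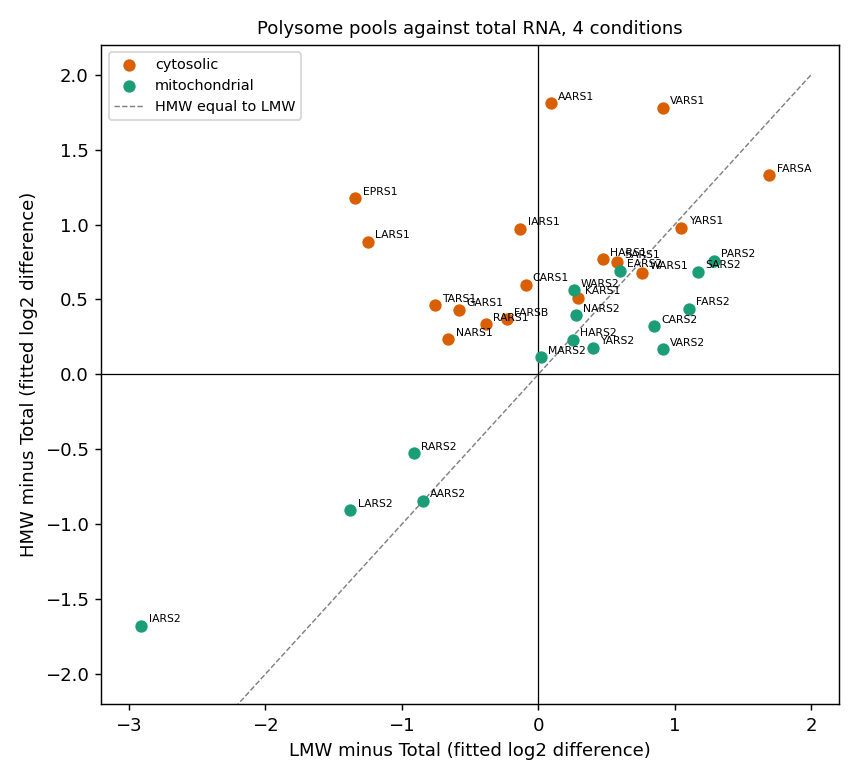
HMW minus Total (vertical axis) against LMW minus Total (horizontal axis), fitted log2 differences over 4 conditions, 1 labelled point per synthetase mRNA, with the dashed line where HMW equals LMW. All 17 cytosolic points lie above 0 on the vertical axis, and IARS2, LARS2, AARS2 and RARS2 lie at the lower left, below 0 on both axes.

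IARS2 had the widest range among the mitochondrial members. Its Total values lay close together, at a log2 intensity of 11.89 and 11.76 in 4GKD (10 Gy, mock) and 11.70 and 11.83 in WT. In HMW it was 11.19 and 11.17 in 4GKD, against 9.49 and 8.61 in WT, and in LMW 9.93 and 9.84 in 4GKD, against 8.59 and 7.19 in WT. Its LMW signal was 0.258-fold and 0.265-fold that of Total in 4GKD, against 0.116-fold and 0.04-fold in WT. IARS2 was higher in 4GKD in both polysome pools, without overlap between the genotypes. In HMW both 4GKD arrays lay above both WT arrays for 22.3% of all genes kept. VARS2 ran the other way in LMW, at 8.995 and 9.32 in 4GKD against 9.88 and 10.78 in WT, without passing (-1.18 ± 0.45, adjusted p = 0.058).

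**Figure D5:**
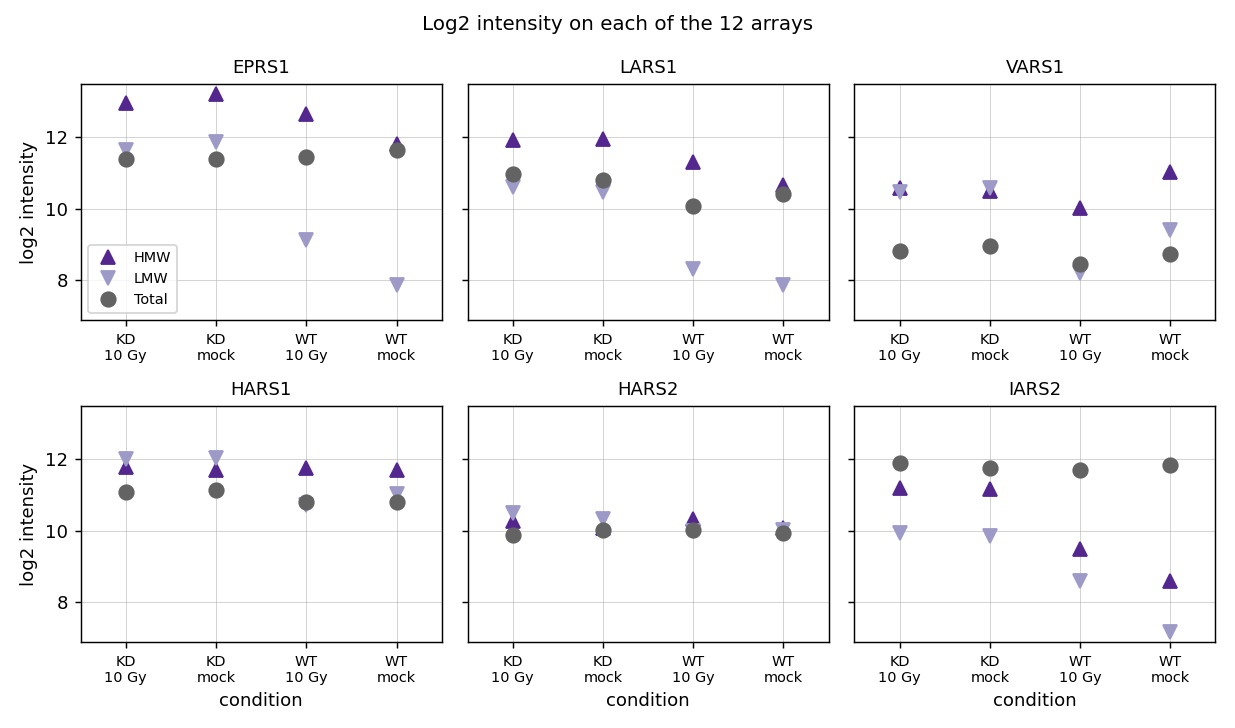
Log2 intensity (vertical axis) of EPRS1, LARS1, VARS1, HARS1, HARS2 and IARS2 on each of the 12 arrays, with conditions along the horizontal axis, 4GKD left of WT, and symbols for HMW, LMW and Total. LMW of EPRS1 is at 11.64 and 11.85 in 4GKD and at 9.13 and 7.88 in WT, and IARS2 in Total stays between 11.70 and 11.89.

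Irradiation with 10 Gy gave no call for any of the 32 members by limma in Total, LMW, HMW or the HMW minus LMW difference. The background was low as well, with 0.177% of all genes kept called in Total, 0.374% in LMW, 0.473% in HMW and 0 genes in HMW minus LMW. At an unadjusted p under 0.05 there were 3 members of 32 in Total, 1 in LMW, 0 in HMW and 0 in HMW minus LMW, against 1305, 798, 852 and 562 of the 10157 genes. The fit pools both genotypes, and the WT polysome arrays moved more. EPRS1 in LMW differed between 10 Gy and mock by -0.21 in 4GKD and by 1.25 in WT, IARS2 by 0.09 in 4GKD and by 1.40 in WT, SARS2 by -0.44 in 4GKD and by -1.23 in WT, and VARS1 by -0.11 in 4GKD and by -1.20 in WT. With 1 array each, these differences between genotypes could not be tested.

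The other genes of tRNA charging were read from short lists. Of 6 complex and editing partners 3 were measured: AIMP1, a scaffold of the multisynthetase complex, and the D-aminoacyl-tRNA deacylases DTD1 and DTD2. All 3 were higher in Total of 4GKD (0.53 for AIMP1, 0.33 for DTD1 and 0.43 for DTD2), where 20.7% of all genes kept were higher. In the heavy-to-light difference AIMP1 stood at -0.09 (adjusted p = 0.875) and DTD1 at 0.03, and DTD2 rose by 0.99 (adjusted p = 0.0247). None of the 4 mitochondrial charging helpers (QRSL1, GATB and GATC of the amidotransferase that makes glutaminyl-tRNA, and the formyltransferase MTFMT) and none of the 4 genes of tRNA maturation and export (TRNT1, ELAC1, ELAC2 and XPOT) passed in the heavy-to-light difference, where their medians were -0.17 and -0.26 and where 9.57% of all genes kept fell and 5.01% rose.

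Of 13 genes of the ATF4 and amino acid response that passed the filter, 4 fell in the heavy-to-light difference of 4GKD and none rose, with a median of -0.09, against 9.57% of all genes kept that fell and 5.01% that rose. They were PHGDH (-1.20), the first enzyme of serine synthesis, asparagine synthetase ASNS (-1.06), the mitochondrial serine hydroxymethyltransferase SHMT2 (-1.03) and the amino acid transporter subunit SLC3A2 (-0.95). ATF4 itself was at 0.58 (adjusted p = 0.0738). In Total of 4GKD 3 of the 13 were higher and 4 lower, against 20.7% and 19.8% of all genes kept, with SLC7A11 (0.94), DDIT3 (0.58) and SESN2 (0.56) higher and PHGDH (-1.41), PSAT1 (-1.21), TRIB3 (-0.40) and MTHFD2 (-0.39) lower.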

How the data were processed

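The authors deposited 1 linear intensity per probe set for each of 12 oligonucleotide arrays, made with RMA (background correction, normalization between arrays and probe summary), per the submitters' processing notes; neither the version nor whether the arrays were normalized in 1 run is stated in the sources used here. They were turned to log2. Of 54675 probe sets, 41097 had 1 gene symbol in the platform annotation and were used, 1801 had several and 11777 none. MARS1, QARS1 and TARS2 had only probe sets annotated to further genes as well. The filter kept genes that reached a log2 intensity of 6 on at least 4 arrays. Fits used limma 3.58.1 in R 4.3.3 (lmFit, eBayes with a trend), with Benjamini-Hochberg adjustment over all 10157 genes kept and calls under 0.05.

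Preparations were compared over 4 matched conditions, with condition as a fixed block. Genotype and treatment were fitted together on 4 arrays, or on 4 HMW minus LMW differences, with 1 residual degree of freedom; for genotype and treatment in LMW and in HMW limma pooled the spread of all genes completely. All comparisons share arrays and are not independent of each other. The script was tested on simulated data. Members of the family and the gene lists were chosen with earlier results of these data known, so a list's count is a description. Every member may be named; the rule for per-array values took the 3 highest and 3 lowest members of each group and enzymes of the same amino acid, of which the text prints a part; the plot of heavy minus light shows every member in every condition. Promoter windows are from RefSeq, and coding length was not examined. Array medians of the deposited intensity lay between 22.6 and 24.4, and the number of arrays limits the precision. The alternatives tried were a filter at 7 or none, the median of a gene's probe sets, no probe sets of the _x_at or _s_at kind, a loess correction, no trend, no block, all 12 arrays in 1 fit, and each condition left out.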

Additional observations from a re-analysis of the deposited data

Results flagged for a closer look

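For 16 members the heavy-to-light difference (HMW minus LMW) differed between 4GKD and WT by the fit on 4 conditions, which is a test of the difference between genotypes itself. Lower in 4GKD were EPRS1 (-2.40), VARS1 (-1.71), AARS1 (-1.69), LARS1 (-1.49), GARS1 (-1.35), CARS1 (-1.19), IARS1 (-1.18), RARS1 (-1.16), HARS1 (-1.15), TARS1 (-1.06), SARS1 (-0.98), PARS2 (-0.97), FARSA (-0.96), YARS1 (-0.81) and KARS1 (-0.66). LARS2 (1.08) was higher. All but PARS2 and LARS2 are cytosolic enzymes. Over all genes kept, 9.57% were lower and 5.01% higher, while 1 of the 15 mitochondrial members was lower and 1 higher. The values are fitted log2 differences from 1 array pair per condition, and the WT polysome arrays differed more between 10 Gy and mock than those of 4GKD did.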

How the results depend on the processing

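In the heavy-to-light difference of 4GKD against WT, 14 of 17 cytosolic members fell, against 9.57% of all genes kept. The share of all genes tested that fell in each alternative stands in brackets. The count stayed 14 of 17 without a filter (4.93%) and with a filter at 7 (11.6%). It was 12 without the trend (6.55%) and 11 with loess correction (5.52%). With the median of a gene's probe sets it was 10 of 16 (5.98%). Without _x_at and _s_at probe sets, which leaves 10 of the 17 genes, it was 6 of 10 (3.96%). Every cytosolic member tested was below 0 in each of these settings. Counts over both groups moved by more than 1.5 times as follows. Without _x_at and _s_at probe sets there were 8 calls against 13 (HMW against LMW), 13 against 20 (HMW against Total), 8 against 13 (knockdown in LMW), 1 against 3 (knockdown in HMW) and 6 against 16 (knockdown on HMW minus LMW), with 25 members left. Without the condition block HMW against LMW had 0 calls by limma, with 9 members at an unadjusted p under 0.05. The knockdown in Total gave 6 calls with a gene's median probe set value and 7 without the trend, against 12, and in HMW 1 without the trend, against 3. One fit of all 12 arrays had 11 calls; it gives a single knockdown effect averaged over the preparations, so it is not an estimate for HMW. Leaving out each condition in turn gave 8 to 14 calls in HMW against LMW (8 without WT mock), 7 to 26 in HMW against Total (7 without WT 10 Gy, 13 without 4GKD 10 Gy) and 12 to 15 in LMW against Total. With the median of probe sets SARS1 turned to -0.41 in HMW against Total (adjusted p = 0.0805) and to -0.41 in LMW against Total (adjusted p = 0.105). YARS1 turned to 0.00 in HMW against Total (fitted value -0.0042, adjusted p = 0.989). Each of these genes had 2 probe sets. The dimmer SARS1 probe set stood at -1.57 in HMW against Total and -1.40 in LMW against Total. The dimmer YARS1 probe set stood at -0.99 in HMW against Total. Why the probe sets of a gene differed was not tested. The cytosolic minus mitochondrial median, -1.002 for the knockdown on HMW minus LMW, ranged from -1.38 to -0.58 when each condition was left out, where the knockdown fits have no residual degree of freedom and give sizes only. In HMW against LMW it was 0.72 (0.56 to 0.96), in HMW against Total 0.52 (0.41 to 0.54) and in LMW against Total -0.37 (-0.61 to -0.21). Without _x_at and _s_at probe sets the last was -0.09 and that of HMW against LMW 0.49. The 10 Gy comparisons had 0 calls by limma in every alternative that gave a test.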

Other observations

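MARS1, QARS1 and TARS2 are named among the family but were left out of the array counts, because each of their probe sets is also annotated to another gene. They are part of the promoter counts. In the heavy-to-light difference, 4GKD minus WT was -1.44 and -1.36 for 2 MARS1 probe sets (methionine enzyme of the multisynthetase complex), -0.95 for the QARS1 probe set (glutamine enzyme of the same complex) and 0.18 for the TARS2 probe set (mitochondrial threonine enzyme). Another MARS1 probe set, with a mean log2 intensity of 3.39 that is below the filter, gave 0.41. The heavy-to-light difference of QARS1 was -0.17 and -0.27 in 4GKD (10 Gy, mock), against 0.79 and 0.66 in WT.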
